A study of Mus musculus with 10 samples.

Results

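Genes of cystine uptake and glutathione use were followed in sorted CD4 CD8 double-positive (DP) thymocytes that lacked E2A, HEB or both. The set holds 10 genes of the 19937 named genes on the array: Slc7a11, Slc3a2, Gclc, Gclm, Gss, Gsr, Gpx1, Gpx4, Txnrd1 and Chac1. They were listed by symbol, and each was read from the probe set (the group of array probes that reports 1 transcript) with the highest mean over the 10 arrays, so probe sets were selected on mean intensity over all groups. The genes themselves were proposed with results of these arrays known. Slc7a11 in particular was already known as one of the largest differences between cells without both factors and control cells, so its values are given as a description, with no test, and counts of called genes are over the other 9. The comparisons of the single losses with WT reuse the WT arrays that this choice rested on.

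The study hybridised RNA of DP cells from single mice, 8 weeks old, to Affymetrix arrays, 1 array per mouse. The groups were DKO (E2Aflox/flox HEBflox/flox cd4-cre+, n = 3), HEBKO (HEBflox/flox cd4-cre+, n = 2), E2AKO (E2Aflox/flox Cd4-cre+, n = 2) and WT (wild-type cd4-cre+, n = 3). E2A, the product of Tcf3, and HEB, the product of Tcf12, are basic helix-loop-helix factors that bind E-box DNA. All 4 groups carry the Cd4-cre transgene, so the recombinase is common to them and deletion starts only in cells that have switched on the Cd4 promoter. The number of arrays limits the precision, and no group has more than 3.

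Cystine, the oxidised dimer of cysteine, enters cells through system xc-, an exchanger made of the transport chain Slc7a11 and the carrier chain Slc3a2 that releases glutamate in return. Inside the cell cystine is reduced to cysteine, and glutamate-cysteine ligase (catalytic subunit Gclc, modifier subunit Gclm) and glutathione synthetase (Gss) build the tripeptide glutathione from it. Glutathione peroxidases (Gpx1 for hydrogen peroxide, Gpx4 for lipid peroxides in membranes) spend glutathione, glutathione reductase (Gsr) and, in the parallel thioredoxin system, thioredoxin reductase (Txnrd1) recycle their substrates with NADPH, and Chac1 degrades glutathione. ATF4, a factor of the amino acid and stress response, is known to activate Slc7a11 and Chac1, and NRF2 (gene Nfe2l2), a factor of the antioxidant response, is known to activate Slc7a11, Gclc, Gclm, Gsr and Txnrd1.

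The sequences before the start sites of Slc7a11, Chac1 and Gclm are shown because the first was much lower without both factors, the second shares its known activator and did not differ detectably, and the third rose. They are the 250 bases upstream of the RefSeq start, 5′ to 3′ on the strand of the gene, in build GRCm38.p6, at chr3:50443614-50443863 (minus strand) for Slc7a11, chr2:119350992-119351241 (plus strand) for Chac1 and chr3:122245307-122245556 (plus strand) for Gclm. Capitals mark every match on either strand to an E-box (CANNTG), to the ATF4 composite element (TGATGNAA) or to the antioxidant response element bound by NRF2 (TGACNNNGC).
Slc7a11: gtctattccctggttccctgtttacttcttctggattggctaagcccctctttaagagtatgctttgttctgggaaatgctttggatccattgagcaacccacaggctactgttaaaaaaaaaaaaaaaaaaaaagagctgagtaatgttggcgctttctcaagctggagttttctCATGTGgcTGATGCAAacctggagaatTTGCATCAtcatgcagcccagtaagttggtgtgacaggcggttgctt
Chac1: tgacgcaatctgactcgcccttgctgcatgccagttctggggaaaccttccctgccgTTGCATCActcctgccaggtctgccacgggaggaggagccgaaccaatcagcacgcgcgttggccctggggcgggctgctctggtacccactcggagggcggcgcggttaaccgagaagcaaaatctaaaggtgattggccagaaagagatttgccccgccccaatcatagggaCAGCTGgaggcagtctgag
Gclm: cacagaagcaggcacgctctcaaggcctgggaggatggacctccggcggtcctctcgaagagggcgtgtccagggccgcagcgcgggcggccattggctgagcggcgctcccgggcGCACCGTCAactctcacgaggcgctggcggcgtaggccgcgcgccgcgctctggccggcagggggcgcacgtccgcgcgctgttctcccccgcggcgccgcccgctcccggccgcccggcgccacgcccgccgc

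The Slc7a11 window held 2 ATF4 composite matches, TGATGCAA at positions -66 to -59 and its reverse-strand form TTGCATCA at -47 to -40, counted back from the start site. It held 1 E-box, CATGTG, at -74 to -69. The Chac1 window held 1 ATF4 composite match at -193 to -186 and 1 E-box of the form CAGCTG at -19 to -14, and the Gclm window held 1 antioxidant response element at -134 to -126 and no E-box. Among 32851 such windows in the RefSeq table, several for some genes, 66.2% held an E-box, 13% the form CAGCTG, 3.45% an ATF4 composite and 10.2% an antioxidant response element, and the CAGCTG matches are also E-box matches. Of the 10 genes 8 had a window, 13 windows in all. A match describes letters, not a bound site, and binding was not measured in this study.

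The targeted transcripts were checked against the labels. Relative to WT, the log2 level of Tcf3 in DKO fell by 0.66 ± 0.11 (standard error, SE; limma adjusted p = 0.00256). For Tcf12 the DKO difference was -1.13 ± 0.10, with an adjusted p of 3.07e-05. Tcf3 was 9.12 to 9.23 in E2AKO against 9.63 to 9.85 in WT, a difference of -0.54 ± 0.13 that did not pass (adjusted p = 0.998, unadjusted 0.00124). Tcf12 was 11.15 to 11.48 in HEBKO against 11.74 to 11.91 in WT, a difference of -0.52 ± 0.12 that did not pass either (adjusted p = 0.0657). Tcf12 was also lower in DKO than in HEBKO (-0.61 ± 0.12, adjusted p = 0.0136). Tcf3 in HEBKO, at 10.02 to 10.06, lay above all WT arrays (0.33 ± 0.13, adjusted p = 0.216). These differences go with the values of DKO against HEBKO and of additivity below, and their part in them was not tested. Whether the probe sets lie in the deleted exons is not given in the sources used here. All 10 measured DP markers, such as Cd4, Cd8a and Rag1, lay above the 40th percentile of every array. The sum of their intensities was 24000 to 28300 in DKO, 34600 to 45800 in HEBKO, 47500 to 48900 in E2AKO and 48400 to 50700 in WT. Of the 10, 7 fell in DKO, where 5.41% of the 13138 genes tested fell and 8.18% rose. The 7 measured markers of mature single-positive T cells all rose in DKO, with sums of 4110 to 5620 in DKO, 773 to 1430 in HEBKO, 724 to 932 in E2AKO and 793 to 837 in WT. HEBKO thus had DP marker sums below all WT arrays, and its mature marker sums spanned those of WT and reached higher. These values go with each DKO and HEBKO result below, and their part in it was not tested. In sorted bulk cells, fewer cells of a type and less RNA per cell cannot be told apart.

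Slc7a11 was lower in DKO than in WT, and of the other 9 genes 3 rose and none fell, where 13.6% of the 13138 genes tested were called in either direction at an adjusted p under 0.05. The Slc7a11 difference was 9-fold, while Gclm, Gpx1 and Gpx4 each rose about 1.4-fold (1.40, 1.43 and 1.42). The remaining 6 were not called. All 10 passed the filter on low intensities. Among the 9, the DKO arrays lay above all WT arrays for 3 and below them for 1, Slc3a2, where 30% of all genes were separated (16.7% higher, 13.4% lower). The median difference of the 10 was 0.16 on the log2 scale, against -0.006 over all genes tested, and since the members were proposed with these arrays known, neither the count nor the median is evidence about the pathway.

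**Figure D1:**
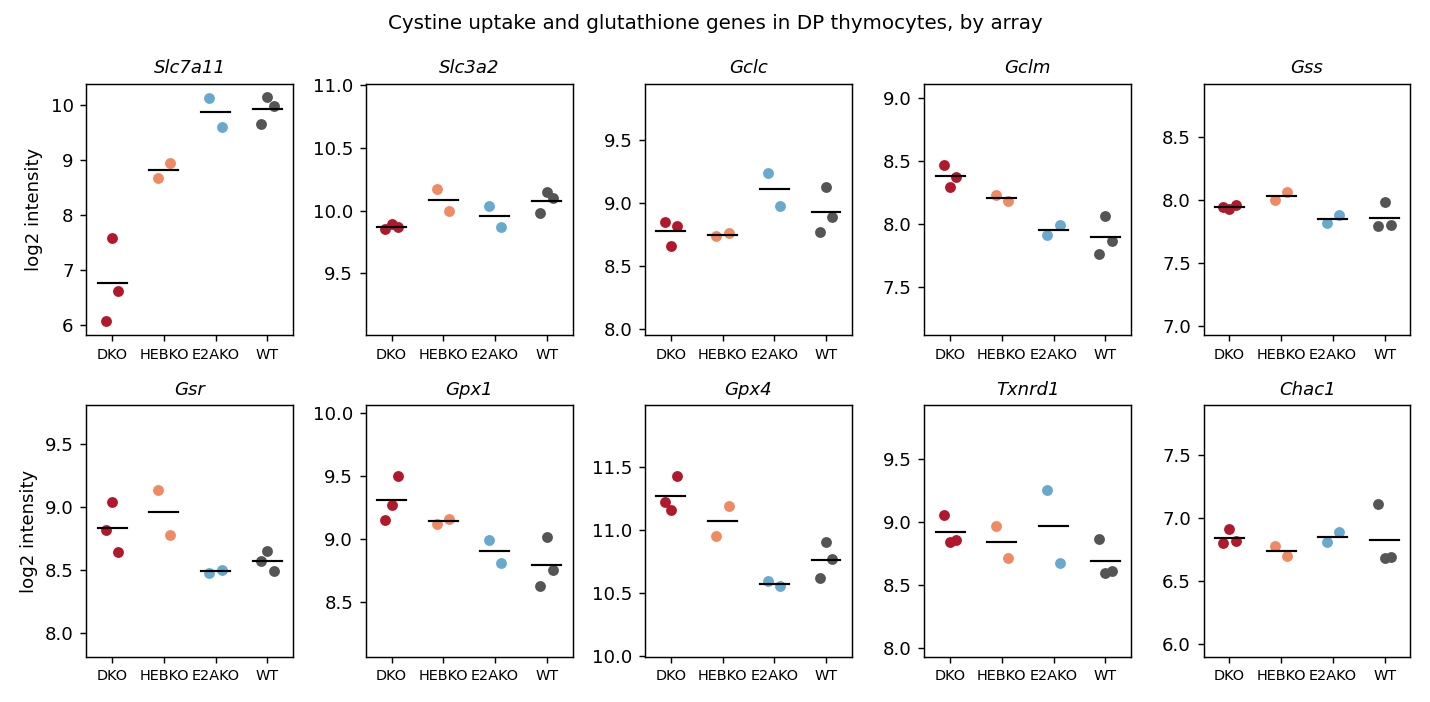
Log2 intensity of the 10 genes in each array (points) with the mean of each genotype (bars); the y axis spans at least 2 log2 units in every panel, and panels of different genes are not comparable in level. Slc7a11 was 6.07 to 7.58 in DKO and 9.66 to 10.14 in WT, and the DKO points of Gclm, Gpx1 and Gpx4 lay above all WT points.

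Slc7a11, the cystine transport chain, had log2 intensities of 6.07, 7.58 and 6.63 in DKO 1 to 3, 8.68 and 8.95 in HEBKO 1 and 2, 10.13 and 9.61 in E2AKO 1 and 2, and 9.66, 10.14 and 9.99 in WT 1 to 3. In linear intensity these were 67.4, 192 and 98.8 in DKO, 409 and 493 in HEBKO, 1120 and 779 in E2AKO, and 811, 1130 and 1020 in WT. The groups therefore stood in the order DKO, HEBKO, then E2AKO and WT together, with no overlap between DKO and HEBKO or between HEBKO and the upper pair. E2AKO and WT overlapped.

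Relative to WT, mean Slc7a11 was 11.1% in DKO, 46% in HEBKO and 95.8% in E2AKO. The difference between DKO and WT was -3.17 ± 0.30 on the log2 scale (SE, 95% interval -3.82 to -2.51). That between DKO and HEBKO was -2.05 ± 0.33 and that between DKO and E2AKO was -3.11 ± 0.33. DKO 1 lay at the 40.2nd percentile of its array, at the level below which a gene was taken as not measured, so the size of the difference may be understated there. The DKO arrays were more spread than the WT arrays, with SDs of 0.76 and 0.24 log2 units.

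Loss of HEB alone left Slc7a11 2.17-fold lower than WT (-1.12 ± 0.33, 95% interval -1.85 to -0.39), and both HEBKO arrays lay below all 3 WT arrays. Loss of E2A alone gave -0.06 ± 0.33 (95% interval -0.79 to 0.67). The departure from additivity, DKO - E2AKO - HEBKO + WT, was -1.99 ± 0.47 (95% interval -3.02 to -0.95). With 1 array left out it ran from -2.40 to -1.64, and the value of -2.40 was without DKO 2, the DKO array with the highest Slc7a11. The Slc7a11 intervals allow neither for the number of genes nor for its choice from these arrays, and they are no test. At the adjusted threshold neither the HEBKO difference nor the departure from additivity was called.

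Tcf3 and Tcf12 in DKO 2, at 8.93 and 10.73, were close to those in DKO 3 (8.94 and 10.71). In DKO 1, which had the lowest Slc7a11, they were 9.29 and 10.68. Whether deletion differed between the DKO arrays was not tested. Macrophages and fibroblasts can also express Slc7a11. Of 10 macrophage markers 7, among them Csf1r, Adgre1 and Lyz2, lay below the 40th percentile in all 10 arrays, and 2 lay above it in all. The sum of the list was 537 to 582 in DKO against 628 to 701 in WT. Of 7 fibroblast markers 3 lay below that percentile in all arrays (Pdgfra, Dcn and Lum), and 4 lay above it in all. The fibroblast sum was 612 to 736 in DKO against 582 to 725 in WT. Of the macrophage list 1 marker, and of the B cell list 1, fell in DKO, where 5.41% of all genes tested did. The 8 thymic epithelium markers summed to 795 to 967 in DKO, 930 to 962 in HEBKO, 981 to 1090 in E2AKO and 1140 to 1250 in WT, and 2 of them fell in DKO. Krt5 and Psmb11 lay below the 40th percentile in all arrays, and 3 of the 8 lay above it in all. B cell markers summed to 339 to 393 in DKO against 448 to 508 in WT. Cd79a, Ms4a1, Ebf1 and Blnk lay below that percentile throughout, and 1 of the 6 measured lay above it throughout. The part of such cells in the Slc7a11 values was not tested.

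Slc3a2, the carrier chain that Slc7a11 shares with other amino acid exchangers, kept nearly its WT level. It was 9.85, 9.89 and 9.87 in DKO, 10.17 and 10 in HEBKO, 10.04 and 9.87 in E2AKO, and 9.98, 10.15 and 10.10 in WT. All DKO arrays lay below all WT arrays, but by little: the difference was -0.21 ± 0.09 (adjusted p = 0.185), and 13.4% of all genes tested showed such a separation downward. Its 95% interval was -0.41 to 0. In HEBKO the difference from WT was 0.01 ± 0.10.

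Among the other light chains that pair with Slc3a2, 4 of 5 were tested and none was called in DKO, where 13.6% of all genes were. Slc7a5, the leucine and large neutral amino acid exchanger, was at 0.11 ± 0.17, Slc7a6 at -0.01 ± 0.10 and Slc7a7 at -0.14 ± 0.10. The 14 tested genes that supply cysteine, methionine and glutamate gave 1 rise and no fall, a share of 7.14%. Cth, which makes cysteine from cystathionine, was at -0.06 ± 0.12, and Glud1, glutamate dehydrogenase, rose by 0.39 ± 0.09 (adjusted p = 0.0138). Glud1 lost its call without WT 3 or DKO 3, at 0.35 each time.

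The subunits of glutamate-cysteine ligase differed in behaviour. Gclm, the modifier subunit that raises the affinity of the enzyme for glutamate, was 8.47, 8.29 and 8.37 in DKO, 8.23 and 8.18 in HEBKO, 7.91 and 7.99 in E2AKO, and 7.76, 8.06 and 7.86 in WT. Every DKO array lay above every other array, and both HEBKO arrays lay above all E2AKO and WT arrays. Gclm rose by 0.48 ± 0.10 in DKO (adjusted p = 0.00811), a call kept under all 19 alternatives with values of 0.41 to 0.57. Its difference in HEBKO was 0.31 ± 0.11 (adjusted p = 0.191) and in E2AKO 0.05 ± 0.11 (adjusted p = 0.998).

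Gclc, the catalytic subunit, was 8.85, 8.66 and 8.82 in DKO, 8.74 and 8.76 in HEBKO, 9.24 and 8.98 in E2AKO, and 8.77, 9.13 and 8.89 in WT. DKO and WT overlapped. The difference between DKO and WT was -0.15 ± 0.11 (95% interval -0.40 to 0.10, adjusted p = 0.458). Gss, which adds glycine to complete glutathione, ran from 7.93 to 7.96 in DKO, 8.00 to 8.06 in HEBKO, 7.82 to 7.88 in E2AKO and 7.79 to 7.98 in WT, a difference of 0.09 ± 0.09 in DKO (adjusted p = 0.602).

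Both glutathione peroxidases rose in DKO. Gpx1, which reduces hydrogen peroxide, was 9.15, 9.27 and 9.50 in DKO, 9.12 and 9.16 in HEBKO, 8.99 and 8.81 in E2AKO, and 8.62, 9.01 and 8.75 in WT. It rose by 0.52 ± 0.12 (adjusted p = 0.0175). The call was lost without WT 1 (0.43, adjusted p = 0.0673), WT 3 (0.49, adjusted p = 0.0732) or DKO 3 (0.42, adjusted p = 0.0822).

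Gpx4, which reduces lipid peroxides and so guards against ferroptosis, was 11.22, 11.16 and 11.43 in DKO, 10.95 and 11.19 in HEBKO, 10.59 and 10.55 in E2AKO, and 10.62, 10.90 and 10.77 in WT. It rose by 0.51 ± 0.11 relative to WT (adjusted p = 0.0106) and by 0.70 ± 0.12 relative to E2AKO (adjusted p = 0.0041). Without DKO 3 the difference from WT was 0.42 (adjusted p = 0.0551). A second probe set is annotated to Gpx4 and differed by 0.34 between DKO and WT. The mean of both differed by 0.42 (adjusted p = 0.0149), so in this comparison their sizes, not their direction, disagree. On the second probe set E2AKO, at 10.06 and 9.73, overlapped WT, at 9.92 to 10.05.

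Gsr, glutathione reductase, was 8.82, 9.04 and 8.64 in DKO, 9.14 and 8.78 in HEBKO, 8.48 and 8.50 in E2AKO, and 8.57, 8.65 and 8.49 in WT. The difference from WT was 0.26 ± 0.12 in DKO (adjusted p = 0.206) and 0.39 ± 0.14 in HEBKO (adjusted p = 0.19), neither past the test. Txnrd1 ran from 8.84 to 9.06 in DKO and from 8.60 to 8.87 in WT, at 0.23 ± 0.15 (adjusted p = 0.379), and E2AKO 1, at 9.26, was the highest array of all for this gene.

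Chac1, the glutathione-degrading enzyme, stayed between 6.80 and 6.91 in DKO, 6.70 and 6.78 in HEBKO, 6.81 and 6.89 in E2AKO, and 6.68 and 7.11 in WT. The difference between DKO and WT was 0.02 ± 0.12 (95% interval -0.24 to 0.27, adjusted p = 0.944). All values lay between the 51.7th and the 59th percentile of their arrays, above the limit for a measured gene but low.

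**Figure D2:**
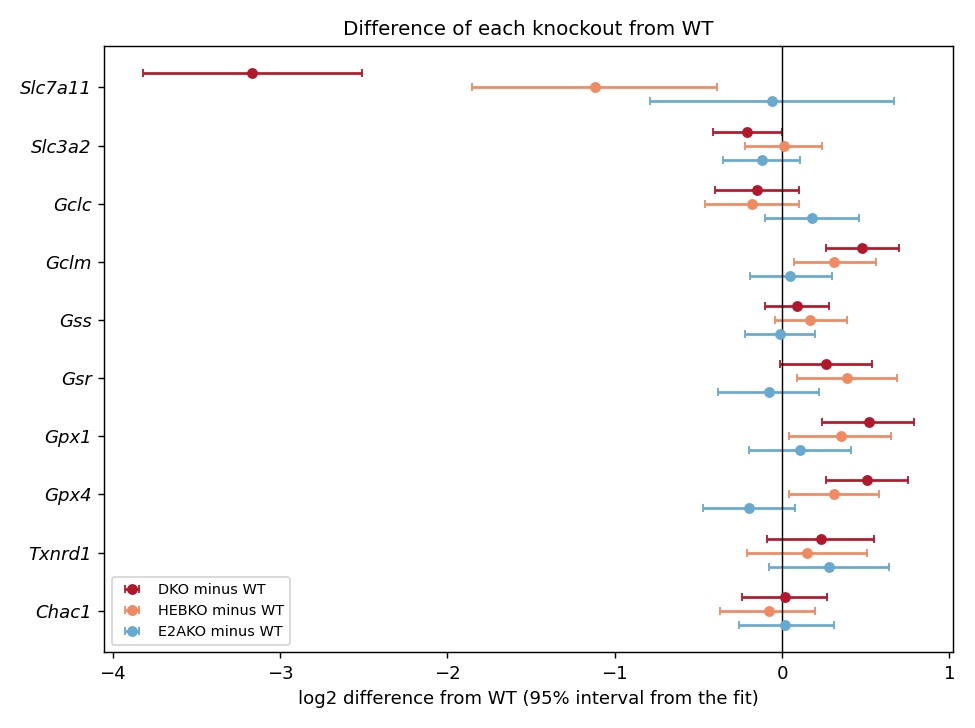
Log2 difference of each gene from WT in DKO, HEBKO and E2AKO (points) with the 95% interval from the fit (bars). Slc7a11 lay at -3.17 in DKO and -1.12 in HEBKO, and the differences of the other 9 genes lay between -0.21 and 0.52. The bars of Slc7a11 are a description and no test.

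Between single losses and WT, none of the 9 genes other than Slc7a11 was called by limma, in HEBKO or in E2AKO. Over all genes 0.906% were called in HEBKO and 0% in E2AKO. At an unadjusted p under 0.05 there were 4 of the 9 in HEBKO (Gclm, Gsr, Gpx1 and Gpx4), where 16.7% of all genes were, and 0 in E2AKO, where 3.18% were. In HEBKO 5 of the 9 lay above and 1, Gclc, below all WT arrays, and 30.5% of all genes were separated (16.5% higher, 14% lower). In E2AKO 0 lay above and 1, Gpx4, below all WT arrays, beside 16.4% of all genes (5.82% higher, 10.6% lower). On the second Gpx4 probe set E2AKO and WT overlapped. The HEBKO differences of Gpx1 and Gpx4 were 0.35 ± 0.14 (adjusted p = 0.241) and 0.31 ± 0.12 (adjusted p = 0.245), and in E2AKO those of the 10 genes ran from -0.20 for Gpx4 to 0.28 for Txnrd1. The comparisons with WT share the same WT arrays.

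Between DKO and the single losses, 0 of the 9 genes other than Slc7a11 were called against HEBKO by limma, beside 3.63% of all genes (2.15% higher, 1.48% lower). At an unadjusted p under 0.05 there were 0 of the 9 against HEBKO, where 15.2% of all genes were. Against E2AKO 2 of the 9 were called as higher and 0 as lower, beside 9.07% of all genes (5.1% higher, 3.97% lower). The arrays did not overlap for 4 of the 9 against HEBKO (2 higher, 2 lower), beside 31.8% of all genes (15.4% higher, 16.4% lower). Against E2AKO they did not overlap for 6 (5 higher, 1 lower), beside 40.2% (24.1% higher, 16.1% lower). The calls against E2AKO were Gclm (0.43 ± 0.11, adjusted p = 0.0342) and Gpx4. Gclm lost that call without WT 3, E2AKO 1, E2AKO 2, DKO 1, DKO 2 or DKO 3, at 0.38 to 0.47. Against HEBKO, Gclm was at 0.17 ± 0.11, Gpx1 at 0.17 ± 0.14 and Gpx4 at 0.20 ± 0.12, none past the test. None of the 9 was called for departure from additivity (limma, and 0.632% of all genes). At an unadjusted p under 0.05 there was 1, Gpx4 (0.40 ± 0.18, adjusted p = 0.555), where 8.72% of all genes were.

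The WT arrays varied together in these genes. WT 2 had the highest WT value for 8 of the 10 genes, and WT 1 for Txnrd1 and Chac1. Over all genes tested, WT 2 was the highest WT array in 40.4%. Without WT 2 the DKO differences were 0.57 for Gclm, 0.63 for Gpx1, 0.57 for Gpx4 and -3.06 for Slc7a11.

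The genes closest to Slc7a11 in profile were sought by a distance that depends on the size of each difference. Only genes with a similarly large fall in DKO can lie close by it. After each gene was set to its WT mean, the 6 tested genes with the smallest root mean square difference from Slc7a11 over the 10 arrays were Plxnd1 (0.36 log2 units), Dhrs3 (0.38), F13a1 (0.42), Mir181a-1 (0.43), Ldlrad3 (0.55) and Mir181b-1 (0.59). Plxnd1 is a semaphorin receptor, Dhrs3 a retinal reductase, F13a1 a subunit of coagulation factor XIII, and Mir181a-1 and Mir181b-1 are microRNA precursors of 1 cluster, whose probe sets may not be independent. The other 9 genes of the set lay at 1.74 to 2.15. None of them had a large fall in DKO, so they had to lie far away. Their distance therefore says nothing about the pathway.

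For Plxnd1, the closest profile, log2 intensity was 8.05, 8.40 and 7.95 in DKO, 9.76 and 10.12 in HEBKO, 10.70 and 10.67 in E2AKO, and 10.97, 11.02 and 11.04 in WT. Its difference from WT was -2.88 in DKO, -1.07 in HEBKO and -0.32 in E2AKO. Dhrs3 was at -3.05, -1.22 and -0.44, F13a1 at -2.90, -0.77 and 0.03, and Mir181a-1 at -2.80, -1.39 and 0.15 in the same comparisons. In all 6 genes, as in Slc7a11, DKO 2 was the highest of the DKO arrays. These genes were picked for this likeness, so their values are a description. Mir181a-1 lay below the 40th percentile in DKO 1 and DKO 3.

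**Figure D3:**
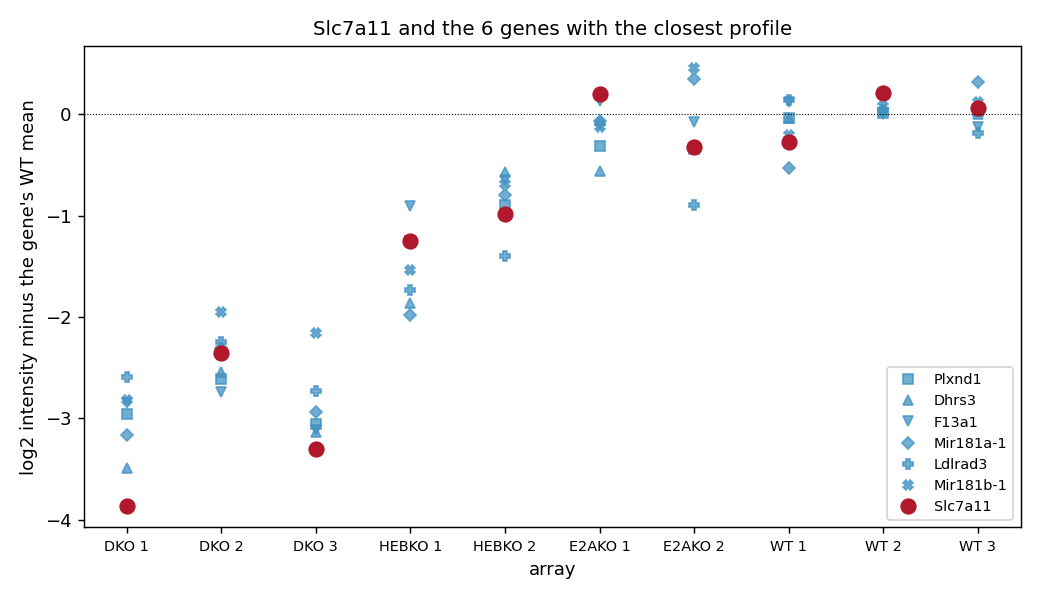
Log2 intensity minus the WT mean of the same gene for Slc7a11 (large points) and the 6 genes with the closest profile (small symbols), by array. Slc7a11 lay at -3.86, -2.35 and -3.30 in DKO 1 to 3 and at -1.25 and -0.98 in HEBKO.

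Beyond the 10 genes, 10 lists of neighbouring redox and amino acid genes held 120 distinct genes tested, of which 21 rose and 5 fell in DKO relative to WT. That is 21.7%, beside 13.6% of all genes tested, 8.18% higher and 5.41% lower. The median difference of the 120 was 0.12. In HEBKO 1 rose and 1 fell (1.67%), beside 0.906% of all genes tested (0.274% higher, 0.632% lower). In E2AKO 0 were called by limma, beside 0% of all genes. At an unadjusted p under 0.05 there were 48 in DKO, 37 in HEBKO and 7 in E2AKO, where 25.7%, 16.7% and 3.18% of all genes were. The lists were chosen with results of these arrays known.

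The thioredoxin, peroxiredoxin and glutaredoxin list had 5 rises and no fall among 13 genes tested in DKO (38.5%, beside 13.6% of all genes). Its median was 0.26 (all genes, -0.006). Glrx, a glutaredoxin that removes glutathione from proteins, had 8.16, 7.77 and 7.19 in DKO, 6.97 and 6.34 in HEBKO, 6.59 and 6.44 in E2AKO, and 6.33, 6.27 and 6.26 in WT. All DKO arrays were above all others. Glrx rose by 1.42 ± 0.21 relative to WT (adjusted p = 0.000978) and by 1.05 ± 0.24 relative to HEBKO (adjusted p = 0.032). Prdx3, the mitochondrial peroxiredoxin, rose by 0.70 ± 0.13 (adjusted p = 0.00403). Prdx1 (0.62 ± 0.17, adjusted p = 0.0308) and Prdx4 (0.54 ± 0.14, adjusted p = 0.0264) rose too, but both lost the call without WT 1, WT 3, DKO 1 or DKO 2, and Prdx1 also without DKO 3, at 0.48 to 0.67 for Prdx1 and 0.42 to 0.53 for Prdx4. Txn1, thioredoxin itself, was at 0.05 ± 0.11.

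Glutathione transferases, which attach glutathione to other molecules, rose where they were called. Of 12 tested genes of the list of transferases and further peroxidases, 3 rose and none fell in DKO, with a median of 0.25. That is 25%, beside 13.6% of all genes tested. Gstp1 was 10.25, 10.20 and 10.10 in DKO, 10.02 and 9.80 in HEBKO, 9.44 and 9.24 in E2AKO, and 9.32, 9.57 and 9.40 in WT, and rose by 0.75 ± 0.11 (adjusted p = 0.000547). Gsto1 rose by 0.82 ± 0.11 (adjusted p = 0.000505) and Gstt2 by 0.75 ± 0.10 (adjusted p = 0.000552). Gstt2 also rose relative to HEBKO (0.53 ± 0.12, adjusted p = 0.0278). Gstp1 has a near-identical neighbour, Gstp2, whose signal its probes may share.

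For glutathione breakdown and export, 2 of 9 tested genes rose in DKO and none fell (22.2%, beside 13.6% of all genes tested). Lap3, a leucine aminopeptidase that can cleave cysteinylglycine, rose by 0.78 ± 0.14 (adjusted p = 0.00396), and since WT 3 and E2AKO 2 were under the 40th percentile of their arrays its size may be understated. Ggt5, a gamma-glutamyltransferase, rose by 0.66 ± 0.16 (adjusted p = 0.0179), a call lost without WT 2, WT 3, DKO 2 or DKO 3, at 0.50 to 0.65. Chac2, a relative of Chac1, was at 0.20 ± 0.12 (adjusted p = 0.342).

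Among regulators of the antioxidant response, the activator Nfe2l2 rose and the repressor Bach1 fell. Nfe2l2, which encodes NRF2, was 9.54, 9.40 and 9.80 in DKO, 9.37 and 9.33 in HEBKO, 9.12 and 9.08 in E2AKO, and 8.99 to 9.01 in WT. It rose by 0.58 ± 0.10 (adjusted p = 0.0031). Bach1, a repressor at the same elements, fell by 0.48 ± 0.09 (adjusted p = 0.00467), with 10.15 to 10.24 in DKO and 10.59 to 10.74 in WT. Keap1, which targets NRF2 for degradation, was at -0.04 ± 0.09.

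The NRF2 list as a whole had 2 rises and 2 falls among 18 tested genes (22.2%, beside 13.6% of all genes) and a median of 0.01. Pgd, a pentose phosphate enzyme that yields NADPH, rose by 0.36 ± 0.10 (adjusted p = 0.0395), and Mafk, a small Maf partner, fell by 0.35 ± 0.09 (adjusted p = 0.0312). Pgd lost the call without WT 1, WT 3 or any 1 E2AKO or DKO array (0.29 to 0.41), and Mafk without WT 1, WT 2 or any 1 DKO array (-0.38 to -0.30). Uncalled genes of the list went both ways. Hmox1 and Srxn1, classical targets, were at -0.32 ± 0.11 (adjusted p = 0.0886) and -0.10 ± 0.10, and Osgin1 was at -0.21 ± 0.09 (adjusted p = 0.158). Abcc1 and Tkt were at 0.38 ± 0.12 (adjusted p = 0.058) and 0.35 ± 0.12 (adjusted p = 0.0888).

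Genes of the ATF4 and integrated stress response list showed 2 rises and 2 falls among 23 tested in DKO, with a median of 0.04. That is 17.4%, beside 13.6% of all genes tested. Atf4 was at 0.02 ± 0.11, and its targets Ddit3 and Trib3 were at 0.03 ± 0.11 and -0.03 ± 0.12. Shmt2, the mitochondrial serine hydroxymethyltransferase, rose by 0.86 ± 0.15 (adjusted p = 0.00241) in DKO and by 0.90 ± 0.17 (adjusted p = 0.0316) in HEBKO. Eif2ak3, the kinase PERK of the endoplasmic reticulum, fell by 0.93 ± 0.13 (adjusted p = 0.000666) in DKO and by 0.77 ± 0.15 (adjusted p = 0.0397) in HEBKO.

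Sesn2, a stress-induced inhibitor of mTORC1, fell by 0.45 ± 0.12 in DKO (adjusted p = 0.0322) and lost the call without WT 1, WT 3 or any 1 DKO array (-0.49 to -0.40). Psph, the last enzyme of serine synthesis, rose by 0.34 ± 0.10 (adjusted p = 0.0354) and lost it without any 1 WT array, DKO 1 or DKO 3 (0.29 to 0.35).

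Gpx1, Gpx4 and Txnrd1 carry selenocysteine, and 13 genes of selenoprotein synthesis or other selenoproteins gave 3 rises and 1 fall in DKO, with a median of 0.22. That is 30.8%, beside 13.6% of all genes tested. Selenop, the selenium transport protein, was 9.54, 9.75 and 9.66 in DKO, 8.54 and 8.85 in HEBKO, 8.93 and 9.16 in E2AKO, and 8.77, 8.88 and 8.76 in WT. It rose by 0.85 ± 0.11 relative to WT (adjusted p = 0.000345) and by 0.96 ± 0.12 relative to HEBKO (adjusted p = 0.00121). Selenos rose by 0.66 ± 0.15 (adjusted p = 0.0102) and Msrb1, a methionine sulfoxide reductase, by 0.52 ± 0.11 (adjusted p = 0.0093), and Msrb1 was not called without WT 3 (0.48). Eefsec, the elongation factor that delivers selenocysteine, fell by 0.35 ± 0.09 (adjusted p = 0.0202), a call lost without WT 3, DKO 2 or DKO 3 (-0.36 to -0.30).

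Of 15 tested genes of lipid peroxidation and ferroptosis, 2 rose and none fell in DKO, with a median of 0.11. That is 13.3%, near the 13.6% of all genes tested. Acsl4, which loads polyunsaturated fatty acids for membrane lipids, rose by 0.43 ± 0.11 (adjusted p = 0.0243), and Dhodh, which reduces ubiquinone in mitochondria, by 0.32 ± 0.09 (adjusted p = 0.0421). Acsl4 lost the call without WT 1, WT 3, DKO 1 or DKO 3 (0.36 to 0.43), and Dhodh without any 1 WT, E2AKO or DKO array (0.26 to 0.36). Of the 3 tested superoxide dismutase and catalase genes, Sod2, the mitochondrial dismutase, rose by 0.49 ± 0.15 (adjusted p = 0.0482) and lost the call without WT 1, WT 3 or any 1 E2AKO or DKO array (0.37 to 0.53). Sod1 and Cat were at 0.03 ± 0.17 and 0.03 ± 0.11.

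**Figure D4:**
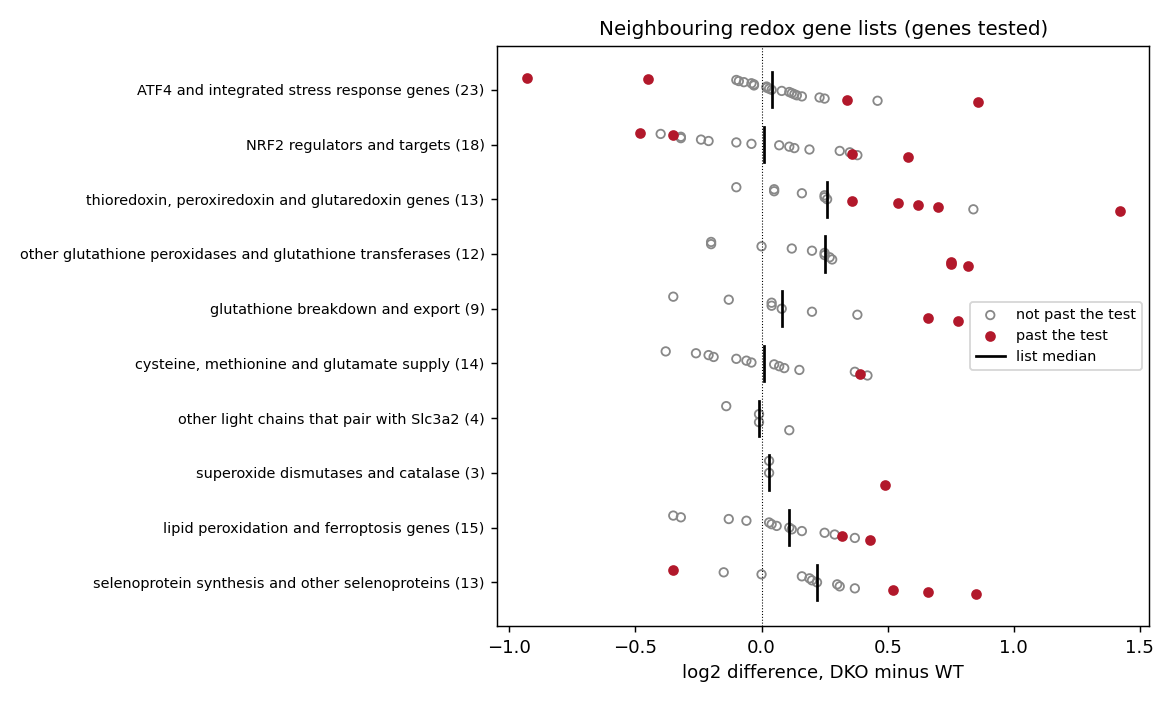
Log2 difference between DKO and WT for each tested gene of 10 neighbouring lists, with filled points for genes past the test, open points for the others and a bar at the list median. Medians ran from -0.01 for the other light chains to 0.26 for the thioredoxin list, and Glrx at 1.42 was the point farthest to the right.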

How the data were processed

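RNA of sorted DP thymocytes from 10 mice was measured on 10 arrays. The authors deposited linear-scale intensity, made with RMA, per the submitters' processing notes, with no version given. RMA corrects background, quantile-normalises and summarises each probe set. Their median ran from 92.6 to 98.6 per array. They were turned to log2. Of 34760 probe sets 21640 carried 1 gene symbol, 1321 several and 11799 none, and only the first kind was used. Genes entered the tests when 2 or more arrays had them at or above that array's 40th percentile (13138 of 19937 genes). Limma 3.58.1 in R 4.3.3 fitted 1 mean per genotype to all arrays (6 residual and 5.68 prior degrees of freedom), for 6 contrasts, two-sided, with Benjamini-Hochberg adjustment over all genes tested, and called a gene at an adjusted p under 0.05. The p-values measure the spread between single mice. The steps were tested on simulated data.

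The members and lists were chosen with earlier results of these data known. Named genes are the members, Tcf3 and Tcf12, up to 4 called genes per list with the largest DKO difference, and the 6 genes closest to Slc7a11. Uncalled genes named for their role are not covered by it and were picked with their values in view. Of 159 list genes 147 were on the array under 1 symbol and 120 were tested. Start-site sequences and motif counts come from RefSeq, build GRCm38.p6; the arrays' build is not given in the sources used here. Alternatives were a block for the replicate number, leaving out each array, fitting the compared groups alone, weighting arrays (statmod 1.5.0), moderation with trend and robustness, averaging the probe sets of each gene, quantile normalisation again, a common median, and a filter at the 60th percentile or none.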

Additional observations from a re-analysis of the deposited data

Results flagged for a closer look

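A departure from additivity drew attention in 2 of the genes closest in profile to Slc7a11, which were picked for that likeness over the same arrays, so their values are a description with no test. The departure from additivity, DKO - E2AKO - HEBKO + WT, was -2.16 ± 0.19 log2 units (SE) for F13a1 and -1.49 ± 0.20 for Plxnd1. That of Slc7a11 itself was -1.99 ± 0.47. No group held enough arrays for a check of single outlying arrays.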

How the results depend on the processing

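Of 1124 values of the 10 genes under the alternatives, 1107 kept their call or lack of one, 11 lost it, 6 gained it and none that was called changed sign, while 41 uncalled values near 0 changed sign. The counts over the 10 genes that follow include Slc7a11, whose share in them is no test. The number past the threshold in DKO against WT was 4, and 2 to 4 with 1 array left out (2 without DKO 3). In HEBKO against WT it was 0, and 1 in a fit of these groups alone (Slc7a11), and 0 with any 1 array left out. In DKO against HEBKO it was 1 (Slc7a11), and 0 to 1 with 1 array left out, 0 without HEBKO 2, where Slc7a11 stood at -1.91 beside -2.05. In DKO against E2AKO the 3 became 5 with array weights and 2 to 3 with 1 array left out. For departure from additivity the count was 0, and 0 to 1 with 1 array left out, 1 without DKO 2, where Slc7a11 stood at -2.40 beside -1.99. The Slc7a11 departure ran from -2.40 to -1.64 with 1 array left out. Over all genes, array weights called 3655 genes in DKO against WT, beside 1786, and 515 in HEBKO, beside 119. They also called Slc3a2 (-0.22) and Gsr (0.39) in DKO. With 1 array left out, the DKO count was 995 to 1917 (995 without WT 3, 1127 without DKO 2, 1040 without DKO 3), and counts were 194 to 499 against HEBKO, 585 to 1293 against E2AKO and 27 to 122 for additivity. The HEBKO count was 73 with arrays shifted to 1 median, 36 in a fit of these groups alone, and 2 to 496 with 1 array left out. With the replicate number as a block, the 10 genes gave 4 calls in DKO, 0 in HEBKO, 0 in E2AKO, 1 against HEBKO, 3 against E2AKO and 0 for additivity, as without it. All genes gave 1 call in E2AKO, beside 0, and 43 for additivity, beside 83. The numbers were not taken to pair mice: residuals of DKO and WT arrays of the same number correlated at 0.40, 0.01 and 0.13. Those of DKO and HEBKO arrays of the same number correlated at 0.48 and 0.45. Over all groups the 13 same-number pairs had a median of 0.15 (-0.29 to 0.48), against -0.15 (-0.48 to 0.41) for 24 other pairs, and 3 of the 6 DKO and WT arrays correlated best with their own number. In groups of 2 arrays the residuals mirror each other, so the pairs are not independent. These values cannot settle whether the numbers pair mice. The interaction was not fitted with only the groups compared, since it needs all 4. Among list genes in DKO, further calls were lost by Psph, Dhodh, Pgd and Sod2 in a fit of DKO and WT alone, by Dhodh and Sod2 with no filter, by Mafk and Sod2 with arrays shifted to 1 median, and by Psph with renewed quantile normalisation. The causes of these changes were not tested. Arrays near background limit the size of differences such as that of Slc7a11 in DKO 1.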
